A study of Homo sapiens with 6 samples.

Results

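The splicing protein genes described here are those whose current symbol begins with SNRP, SF3A, SF3B, U2AF, PRPF, LSM, SRSF or HNRNP followed by a letter or digit. They number 56 of the 6255 named genes measured, and 98 of the 9169 spots tested. A further annotated spot, of HNRNPA0, held the stand-in value for no signal on all 6 arrays and was left out, so that every member gene was measured. RNA came from SH-SY5Y, an established human neuroblastoma line with features of immature sympathetic neurons. The 3 DN-TRF2 samples carried the plasmid pIRES2-EGFP with an insert for dominant-negative TRF2, TRF2 being a telomere-capping protein of the shelterin complex. The 3 GFP control samples carried the plasmid pEGF-C2 with no insert. Both groups were selected in geneticin at 500 µg/ml and collected on day 7 after transfection, in 3 independent experiments. Because the plasmid backbone differed along with the insert, their effects cannot be told apart, and the labels do not state which promoter drove the insert or which fraction of cells expressed it. Each sample was hybridized as radiolabelled cDNA, in 1 channel, to 1 array of 9600 cDNA spots.

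As background, the spliceosome removes introns from nuclear transcripts. Its core particles, the small nuclear ribonucleoproteins or snRNPs, each combine a short RNA with a ring of Sm or LSm proteins and particle-specific proteins. The SF3A and SF3B complexes and the U2AF dimer help the U2 snRNP to settle on the branch point. The PRPF proteins assemble and remodel the U4/U6.U5 particle and later complexes. SR proteins (SRSF genes) mostly bind exons and promote their inclusion, while hnRNP proteins (HNRNP genes) coat nascent RNA and often repress splice sites. In neurons, changes in the balance of such regulators accompany changes in exon choice.

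No splicing protein gene passed the test of a difference between DN-TRF2 and GFP control cells. The samples are bulk RNA, in which fewer cells of a kind and less RNA per cell cannot be told apart. With spots averaged per gene, 0 of the 56 members had an adjusted p under 0.05 in limma, as did 0 of all 6255 genes (0%), and the smallest adjusted p of any member was 1.00. At an unadjusted p under 0.05 there was 1 member, SNRPA, against 223 of all genes (3.57%). Differences, given throughout as DN-TRF2 minus GFP control on the scale of log2(intensity + 50), ran from -0.33 (LSM10) to 0.27 (PRPF4), and their median size regardless of sign was 0.087 over the members and 0.11 over all genes. The mean was lower in DN-TRF2 for 40 of the 56 members, or 71.4%, where it was lower for 52% of all genes, and the median difference was -0.054 over the members and -0.0067 over all genes. This count and median carry no test. Of the 3 members whose groups did not overlap (SNRPA, SNRPG and SF3B3), all were lower in DN-TRF2, which is 5.36% of the members, and 4.25% of all genes were separated in that way. No member was separated in the other direction, against 4.7% of all genes.

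The intervals set how large an undetected difference could be in the average over a gene's spots. They hold for 1 gene at a time and not jointly for the 56. The 95% interval of a member's difference had a half-width of 0.27 to 0.56, with a median of 0.33, and for all 56 members it lay within -1 and 1, so within 2-fold either way on the offset scale. For 48 members it also lay within 1.5-fold. The other 8 were SNRPA, SNRPD1, SNRPE, SF3B6, PRPF4, LSM10, SRSF7 and HNRNPLL. The widest bounds were -0.76 for LSM10 and 0.65 for SF3B6. Single spots could lie farther out than the average of a gene. PRPF3 and U2AF1 were within 1.5-fold as averages, yet each had a spot at -0.51 ± 0.22 and -0.47 ± 0.19, respectively. Larger differences at single spots are therefore not excluded. The offset of 50 understates changes at dim spots, which bears on the 5 members with a mean log2 signal under 8 (SNRPD1, SF3A2, LSM2, LSM5 and SRSF5). It also bears on members with a dim spot beside brighter ones, such as SNRPA (a spot at 7.93) and SF3B3 (a spot at 7.62). Between offsets of 50 and 10 the difference went from -0.32 to -0.37 for SNRPA and from -0.16 to -0.20 for SF3B3. The LSM median went from -0.078 to -0.12. At an offset of 10 the intervals of all 56 members were likewise within 2-fold. The number of arrays limits this precision.

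**Figure D1:**
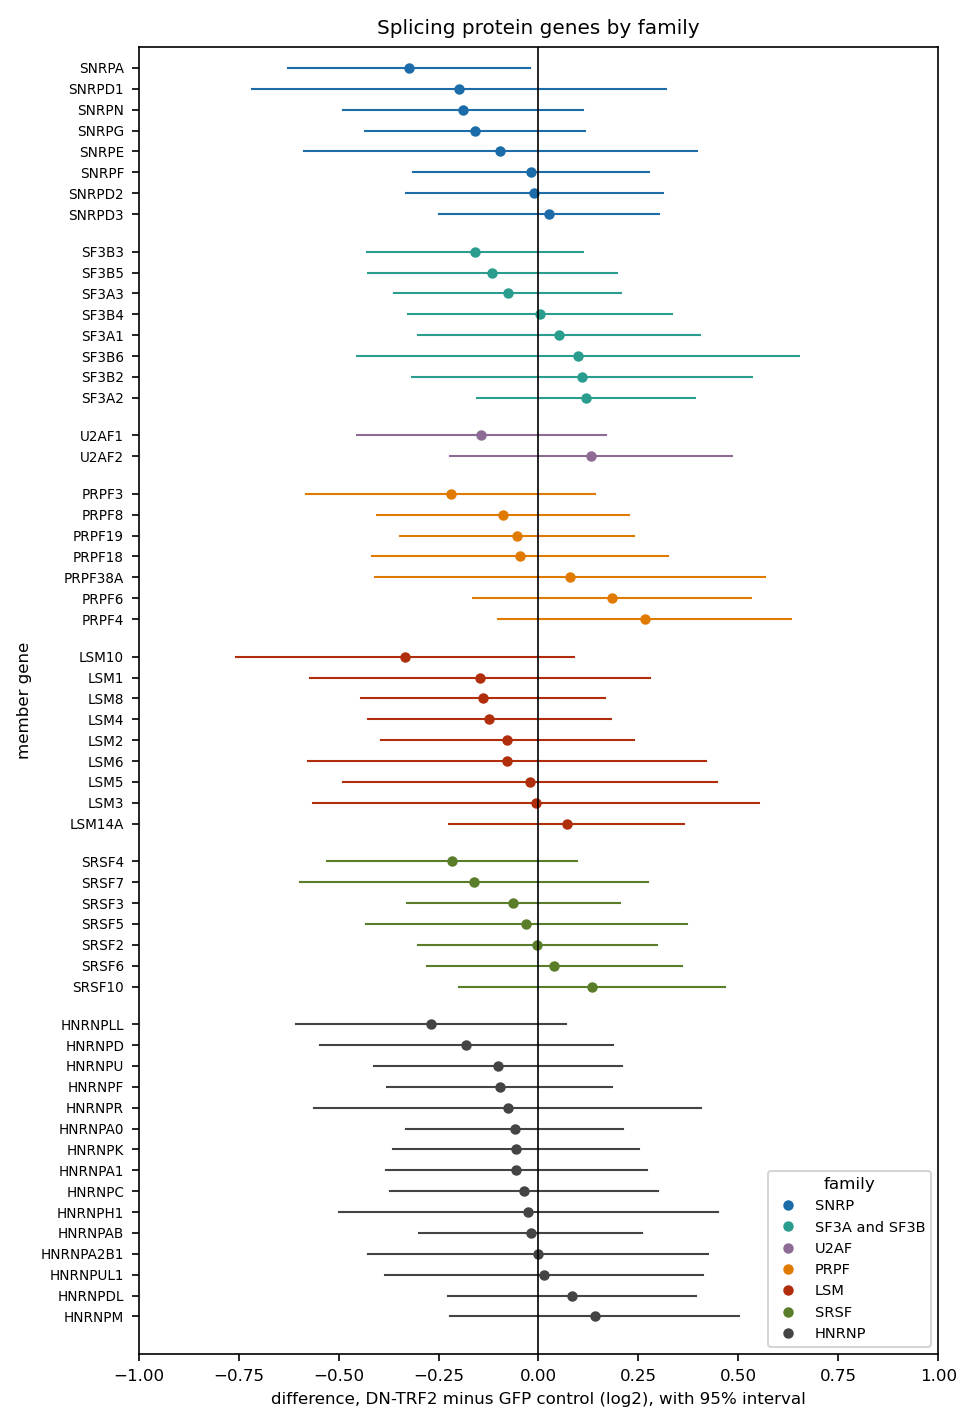
Difference between DN-TRF2 and GFP control (log2, horizontal axis) for each of the 56 member genes (vertical axis), coloured by family; points are limma estimates with spots averaged per gene and lines are 95% intervals, n = 3 arrays per group. SNRPA is the 1 gene whose interval, -0.63 to -0.021, does not include 0, and all intervals lie between -0.76 and 0.65.

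Array facts that touch these results are as follows. The median intensity of the tested spots ran from 480 to 712 on the 6 arrays. Values were more scattered among the GFP control arrays: the median SD of a member was 0.12 in DN-TRF2 and 0.20 in GFP control, close to the values over all genes (0.12 and 0.22). The GFP control SD was the larger in 71.4% of members and 78.4% of all genes. GFP control replicate 2 stood farthest from its group, with an SD of its deviations over genes of 0.28, against 0.23 and 0.19 for GFP control replicates 1 and 3. TRF2 itself (TERF2) was not analysed here, and the group labels were therefore not checked through it. Of 16 sympathetic neuroblastoma markers listed, 9 were measured, and 8 of these lay above the median signal of all genes (GATA2, GATA3, DBH, DDC, CHGA, CHGB, STMN2 and GAP43, with RET below it). The same held for 2 of 6 blood and immune, 3 of 9 liver and epithelial and 4 of 7 mesenchymal markers, although signal does not rank genes reliably on this array. No marker passed limma's test over all genes. Among the mesenchymal markers, a list chosen with earlier results known, 5 of 7 had a higher mean in DN-TRF2. Over all genes 3004 of 6255 did. An unadjusted p under 0.05 was found for 3.57% of all genes and for 2 of these 7 markers. These were TIMP1, a secreted protease inhibitor, at 8.68, 8.63 and 8.42 in DN-TRF2 and 7.74, 7.86 and 8.07 in GFP control (0.68 ± 0.14), and CAV2, a caveolar protein, at 0.48 ± 0.15. They were also the 2 of 7 whose groups did not overlap, both with DN-TRF2 higher, where 4.7% of all genes were so separated. The same was seen at 2 of 6 blood and immune markers (CD14 and HBB, the latter dim at 6.21). It was seen at 1 of 9 neuroblastoma markers (GATA3) and 0 of 9 liver and epithelial markers. LUM differed by 0.45 ± 0.20 and VIM by -0.20 ± 0.15. FN1, TAGLN and CAV1 were nearly level, at -0.029 ± 0.12, 0.027 ± 0.12 and 0.056 ± 0.12. The median of the 7, centred per gene, was -0.042, 0.12 and 0.064 on the DN-TRF2 arrays and -0.055, -0.036 and -0.14 on the GFP control arrays, which overlapped. Of the neuroblastoma markers, 5 of 9 had a higher mean, and the median difference was 0.026. The highest was GAP43, a growth cone protein, at 0.46 ± 0.17. It was the 1 of these 9 with an unadjusted p under 0.05 in limma, against 3.57% of all genes. Of the blood and immune and the liver and epithelial markers, 0 had such a p. The 4 with a lower mean were CHGB (-0.18), CHGA (-0.14), RET (-0.14) and DBH (-0.040). The part of these markers in the members' values was not tested.

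Among the snRNP proteins (SNRP genes), 7 of 8 had a lower mean in DN-TRF2, with a median difference of -0.13. SNRPA encodes the A protein of the U1 snRNP, which recognises the upstream splice site. It lay at 8.83, 8.89 and 9.11 on DN-TRF2 replicates 1, 2 and 3 and at 9.24, 9.38 and 9.17 on the GFP control replicates in the same order. All 3 DN-TRF2 values were under all 3 GFP control values, with DN-TRF2 replicate 3 and GFP control replicate 3 nearly touching. The difference was -0.32 ± 0.13 (SE, n = 3 arrays per group), with an unadjusted p of 0.0389 and an adjusted p of 1.00 in limma. Its 2 spots both pointed the same way, at -0.20 ± 0.17 for the brighter and -0.44 ± 0.17 for the dimmer, whose mean signals were 10.3 and 7.93. With 1 array left out the SNRPA difference ran from -0.41 to -0.27.

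The other 7 SNRP members encode Sm ring proteins, the shared core of the spliceosomal snRNPs, and 6 of the 7 had a lower mean, with a median of -0.096. SNRPN, an imprinted gene whose product SmN takes the place of SmB in brain, lay at 9.22, 9.09 and 9.24 on the DN-TRF2 arrays and at 9.48, 9.19 and 9.44 on the GFP control arrays. The groups overlapped, since GFP control replicate 2 fell among the DN-TRF2 values, and the difference was -0.19 ± 0.13. A cDNA clone of SNRPN can also hybridize with RNA of its close relative SNRPB, which was not analysed here. SNRPG, the SmG gene, lay at 9.66, 9.64 and 9.49 on the DN-TRF2 arrays and 9.70, 9.73 and 9.83 on the GFP control arrays. Its groups did not overlap, but the highest DN-TRF2 and the lowest GFP control value almost met, and the difference of -0.16 ± 0.12 was close to its standard error.

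SNRPD1 (SmD1) and SNRPE (SmE) showed how far the controls spread. SNRPD1 lay at 7.53, 7.72 and 7.54 on the DN-TRF2 arrays and at 7.24, 8.20 and 7.96 on the GFP control arrays. The controls thus lay on both sides of the DN-TRF2 values, with an SD of 0.11 in DN-TRF2 and 0.50 in GFP control, and the difference was -0.20 ± 0.23. SNRPE reached 9.87 on GFP control replicate 2 against 9.07 and 9.09 on GFP control replicates 1 and 3, while the DN-TRF2 arrays held 9.22, 9.40 and 9.13. Of the remaining members, SNRPF differed by -0.019, SNRPD2 by -0.011 and SNRPD3 by 0.026, with standard errors of 0.13, 0.14 and 0.12. The SNRP median changed with the array left out, while the same-numbered array of the other group stayed in. Without GFP control replicate 2 the median was 0.012 and 3 of the 8 had a lower mean. Without GFP control replicate 1 it was -0.16 and all 8 did.

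The SF3A and SF3B subunits, which belong to the U2 snRNP, went both ways, with 3 of 8 lower and a median difference of 0.028. SF3B3, a large scaffold subunit of SF3B, lay at 8.39, 8.24 and 8.35 on the DN-TRF2 arrays and 8.50, 8.42 and 8.54 on the GFP control arrays. Its groups did not overlap and the difference was -0.16 ± 0.12, lower at all 3 of its spots. The spots were unequal, however, at -0.38 ± 0.15 for 1 of them and -0.061 ± 0.14 and -0.038 ± 0.15 for the other two. The spot at -0.38 and that at -0.061 carry the same clone accession.

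SF3A2, a subunit of the SF3A trimer, had values of 7.69, 7.74 and 7.79 in DN-TRF2 and 7.58, 7.56 and 7.73 in GFP control. It was the single SF3 member higher at every replicate number, by 0.12 ± 0.12, and the groups overlapped only through GFP control replicate 3. SF3B5, a small SF3B subunit, held 8.44, 8.60 and 8.59 in DN-TRF2 and 8.57, 8.87 and 8.54 in GFP control, a difference of -0.11 ± 0.14. SF3A3, a further SF3A subunit, held 8.19, 8.18 and 8.41 in DN-TRF2 and 8.36, 8.37 and 8.29 in GFP control, a difference of -0.077 ± 0.13. Both pairs of groups overlapped. SF3B6, whose product (p14) contacts the branch point, lay at 8.73, 9.08 and 9.03 in DN-TRF2 and 8.55, 9.45 and 8.54 in GFP control. GFP control replicate 2 was the highest and the other controls the lowest of its 6 values. The difference of 0.099 ± 0.24 became 0.40 ± 0.14 without that array (unadjusted p 0.0187, adjusted p 0.485, limma). The array left out was the one opposing the difference, and 8.14% of all genes had an unadjusted p under 0.05 in that fit. SF3B2, SF3A1 and SF3B4 differed by 0.11, 0.052 and 0.0042, within their standard errors of 0.19, 0.16 and 0.15.

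The U2AF dimer gave opposite signs at its subunits. U2AF1, the small subunit that reads the AG at the downstream splice site, lay at 9.96, 9.82 and 9.88 on the DN-TRF2 arrays and at 9.83, 10.20 and 10.06 on the GFP control arrays, a difference of -0.14 ± 0.14. Its spots disagreed: the brighter differed by -0.47 ± 0.19, with DN-TRF2 values of 10.18, 10.14 and 10.05 against GFP control values of 10.30, 11.01 and 10.48, and the dimmer by 0.19 ± 0.15. At the brighter spot the groups did not overlap, and GFP control replicate 2 stood above all other arrays. U2AF2, the large subunit that binds the polypyrimidine tract, was tightly placed at 11.75, 11.77 and 11.76 in DN-TRF2 and spread over 11.95, 11.50 and 11.45 in GFP control. Its difference of 0.13 ± 0.16 lay within 1 standard error. Leaving out GFP control replicate 1 gave 0.29, and leaving out GFP control replicate 3 gave 0.040.

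PRPF genes split 4 lower to 3 higher, with a median of -0.045. Within the U4/U6.U5 tri-snRNP, PRPF4 and PRPF3, which encode binding partners on the U4/U6 particle, had opposite signs. PRPF4 lay at 10.21, 9.92 and 10.02 in DN-TRF2 and at 9.66, 9.62 and 10.08 in GFP control. The DN-TRF2 arrays were above GFP control replicates 1 and 2, with GFP control replicate 3 inside their range, and the difference was 0.27 ± 0.16, the highest of all members. Without GFP control replicate 3 it was 0.41 ± 0.14 (unadjusted p 0.0230, adjusted p 0.612, limma). That array held the highest control value, and 7.74% of all genes had an unadjusted p under 0.05 in that fit. PRPF3 lay at 8.58, 9.14 and 8.78 in DN-TRF2 and at 9.01, 9.05 and 9.11 in GFP control, a difference of -0.22 ± 0.16. Here DN-TRF2 replicate 2 was the highest of all 6 arrays and the other DN-TRF2 arrays the lowest. Of its 2 spots, the dimmer differed by -0.51 ± 0.22 and the brighter by 0.066 ± 0.17.

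PRPF6, a bridging protein between the U5 and U4/U6 particles, differed by 0.18 ± 0.15. Its DN-TRF2 values of 9.16, 9.19 and 9.15 were close together, against 9.08, 8.68 and 9.19 in GFP control, where replicate 2 was low. Without that array the difference was 0.033. PRPF8, the large protein at the catalytic centre, held 9.67, 9.32 and 9.39 in DN-TRF2 and 9.59, 9.62 and 9.44 in GFP control, and differed by -0.089 ± 0.14. PRPF19, a ubiquitin ligase that names its own spliceosomal complex, differed by -0.053 ± 0.13, PRPF18, a factor of the second splicing step, by -0.045 ± 0.16, and PRPF38A, a protein of the precatalytic spliceosome, by 0.079 ± 0.22.

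Of the LSM genes 8 of 9 had a lower mean, with a median of -0.078. Not all of them act in splicing: LSM2, LSM3, LSM4, LSM5, LSM6 and LSM8 encode the nuclear ring on U6 RNA, LSM1 takes the place of LSM8 in a cytoplasmic ring that promotes mRNA decay, LSM10 belongs to the U7 particle that processes histone mRNA, and LSM14A to cytoplasmic granules. LSM10 gave the lowest difference of any member, -0.33 ± 0.19. Its values were 8.93, 8.69 and 9.07 in DN-TRF2 and 9.60, 8.97 and 9.13 in GFP control. GFP control replicate 1 was far above the rest and the groups overlapped at the other arrays. The difference was -0.15 without that array, and -0.47 ± 0.18 without GFP control replicate 2 (unadjusted p 0.0282, adjusted p 0.527, limma). GFP control replicate 2 held the lowest control value, and 8.14% of all genes had an unadjusted p under 0.05 without it.

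All 6 genes of the U6 ring had a lower mean, with differences from -0.14 to -0.0067 that were close to or below their standard errors in size. LSM8 lay at 8.44, 8.45 and 8.49 in DN-TRF2 and 8.72, 8.38 and 8.70 in GFP control, a difference of -0.14 ± 0.14 in which GFP control replicate 2 was the lowest value. LSM4 lay at 10.26, 9.95 and 10.06 in DN-TRF2 and 10.11, 10.21 and 10.31 in GFP control, and its difference of -0.12 ± 0.13 was lower at all 3 spots. The DN-TRF2 arrays themselves spread widely at LSM3 (8.30, 9.12 and 8.99, against 8.51, 8.73 and 9.19 in GFP control) and at LSM6 (9.34, 9.71 and 8.92, against 9.60, 9.08 and 9.52). Neither gene separated the groups. With 1 array left out, between 4 and 6 of the 6 ring genes had a lower mean. LSM1 lay at 11.74, 11.88 and 11.45 in DN-TRF2 and at 12.18, 11.77 and 11.55 in GFP control, and differed by -0.15 ± 0.19. LSM14A, the LSM member with a higher mean, differed by 0.070 ± 0.13.

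SR protein genes had 5 of 7 members lower, with a median of -0.031. SRSF4 lay at 8.09, 7.92 and 8.14 on the DN-TRF2 arrays and 8.44, 8.10 and 8.26 on the GFP control arrays. It was lower at every replicate number, with a difference of -0.22 ± 0.14, although GFP control replicate 2 fell inside the DN-TRF2 range. SRSF7 held 9.34, 9.66 and 9.66 in DN-TRF2 and 9.31, 9.99 and 9.83 in GFP control, a difference of -0.16 ± 0.19. On replicate 1 both arrays were low, and the difference was -0.36 without GFP control replicate 1 and -0.021 without GFP control replicate 2. SRSF3, the smallest SR protein, had close values on all arrays: 9.17, 9.23 and 9.17 in DN-TRF2 and 9.21, 9.33 and 9.22 in GFP control, a difference of -0.063 ± 0.12.

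SRSF10, an SR-like protein that acts as a splicing repressor when dephosphorylated, was the SR gene with the highest difference, 0.13 ± 0.15. It lay at 9.71, 9.63 and 9.64 in DN-TRF2 and at 9.68, 9.25 and 9.64 in GFP control, and its 3 spots gave 0.10, 0.13 and 0.18. GFP control replicate 2 was low and the other controls lay among the DN-TRF2 values, so that without that array the difference was -0.00057. SRSF6, SRSF2 and SRSF5 differed by 0.040 ± 0.14, -0.0031 ± 0.13 and -0.031 ± 0.18.

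The HNRNP family is the largest, with 12 of 15 genes lower and a median of -0.055. Without GFP control replicate 3 the count was 8 of 15 and the median -0.0073, and without DN-TRF2 replicate 1 they were 9 of 15 and -0.024. Those fits kept the same-numbered array of the other group, so an array and its replicate number cannot be told apart. HNRNPLL, known from lymphocytes as a regulator of CD45 exon choice, had the lowest difference, -0.27 ± 0.15. It lay at 9.49, 9.28 and 9.58 in DN-TRF2 and at 9.81, 9.85 and 9.49 in GFP control, where replicate 3 sat within the DN-TRF2 range. The difference came from 1 of its 2 spots, at -0.53 ± 0.19, whereas the brighter spot gave -0.0086 ± 0.16. HNRNPD, whose product AUF1 binds AU-rich elements and affects mRNA stability, held 9.24, 9.61 and 9.37 in DN-TRF2 and 9.32, 9.74 and 9.70 in GFP control. It was lower at every replicate number with overlapping groups, and differed by -0.18 ± 0.16. HNRNPM, a splicing regulator, had the highest HNRNP difference, 0.14 ± 0.16, with 9.89, 9.91 and 9.997 in DN-TRF2 and 9.47, 9.89 and 10.01 in GFP control. Only GFP control replicate 1 stood apart there, and without it the difference was -0.019.

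The abundant core hnRNP genes were close between the groups. HNRNPA1, a splicing repressor, lay at 11.08, 11.11 and 11.22 in DN-TRF2 and at 10.97, 11.21 and 11.40 in GFP control, and differed by -0.055 ± 0.14. HNRNPA2B1 differed by -0.0014 ± 0.19. HNRNPC, which masks cryptic exons, held 10.39, 10.46 and 10.40 in DN-TRF2 and 10.20, 10.68 and 10.47 in GFP control, a difference of -0.036 ± 0.15. For HNRNPA1 and HNRNPC alike, the DN-TRF2 values lay wholly inside the range of the controls. HNRNPU, a nuclear scaffold protein, lay at 11.11, 11.11 and 11.20 in DN-TRF2 and 11.03, 11.39 and 11.30 in GFP control (-0.10 ± 0.14), and HNRNPF, a binder of G-rich tracts, at 10.35, 10.48 and 10.51 in DN-TRF2 and 10.57, 10.43 and 10.63 in GFP control (-0.097 ± 0.12). Both pairs of groups overlapped.

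HNRNPUL1, a relative of HNRNPU, gave an example of the contrast in spread, at 9.40, 9.43 and 9.42 in DN-TRF2 and at 9.56, 9.01 and 9.64 in GFP control. The mean difference was 0.014 ± 0.18, and GFP control replicate 2 alone lay below the rest. HNRNPA0, a relative of the A proteins, lay at 8.79, 8.78 and 8.63 in DN-TRF2 and 8.83, 8.80 and 8.75 in GFP control, a difference of -0.060 ± 0.12. HNRNPAB, an A/B-type relative, lay at 8.96, 8.79 and 8.91 in DN-TRF2 and 8.86, 8.85 and 9.01 in GFP control, a difference of -0.019 ± 0.12. Neither separated the groups. HNRNPR differed by -0.077 ± 0.21. GFP control replicate 2 held 8.71 there, against 9.44 and 9.52 on the other controls and 9.0, 9.19 and 9.24 on the DN-TRF2 arrays. HNRNPK, HNRNPH1 and HNRNPDL differed by -0.056, -0.025 and 0.085, within standard errors of 0.14, 0.21 and 0.14.

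**Figure D2:**
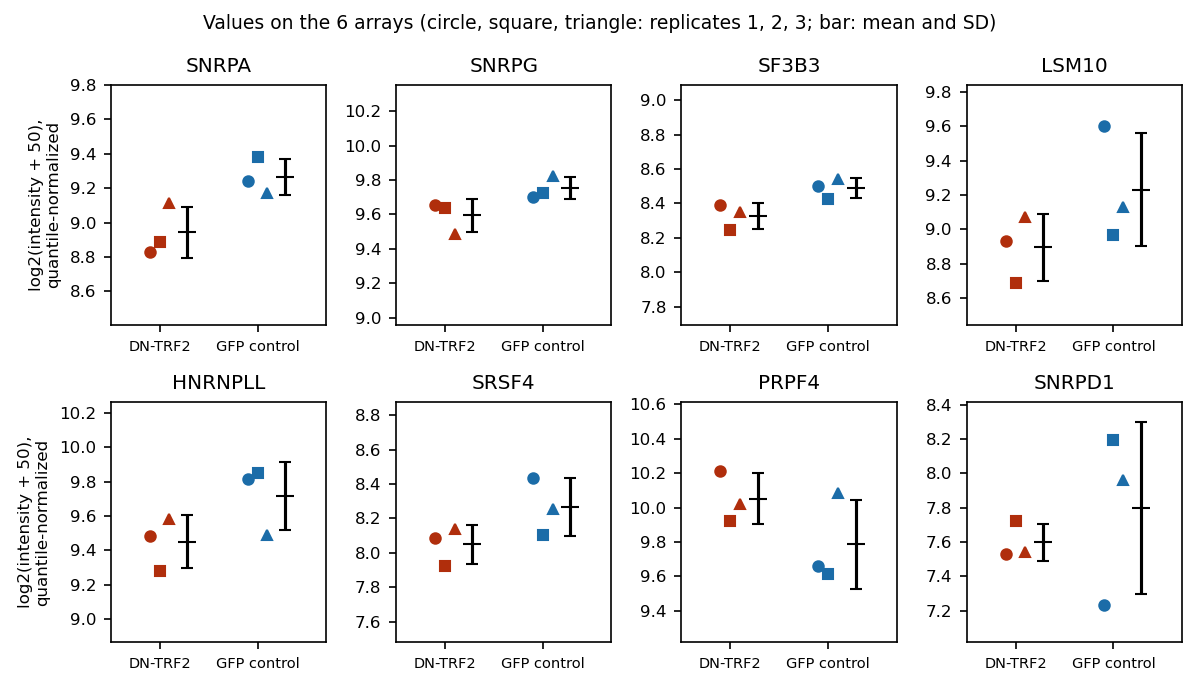
Values of 8 members on each array (vertical axis, log2(intensity + 50) after quantile normalization, each panel spanning the same height) for DN-TRF2 at left and GFP control at right; circles, squares and triangles are replicates 1, 2 and 3, and bars are the mean and SD. SNRPA, SNRPG and SF3B3 separate the groups by narrow gaps, whereas at SNRPD1 the GFP control arrays run from 7.24 to 8.20 around the DN-TRF2 values.

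Several members were spotted more than once, which allowed the same gene to be read from different spots. In 3 members, SF3B3, SNRPD2 and SNRPD3, 2 of the spots were annotated to the same clone. The spots differed by -0.075 and 0.053 for SNRPD2 and by 0.12 and -0.069 for SNRPD3. For the others no shared clone was annotated, so clone and position cannot be told apart. Of the 26 members with at least 2 spots, 8 were lower at every spot, 3 were higher at every spot and 15 were mixed. Among the 16 members with exactly 2 spots the signs were shared in 8, and among the 1057 such genes of the whole array in 48.4%. The same gene gave very different signal at its spots, with a median range of 1.93 on the log2 scale and a range of 5.81 for HNRNPA0, whose 6 spots had mean signals from 6.27 to 12.1 and differences from -0.22 to 0.12. HNRNPAB ranged from -0.20 ± 0.16 at its dimmest spot to 0.29 ± 0.24 at its brightest. HNRNPC had 2 spots lower and 2 higher, from -0.19 ± 0.15 to 0.19 ± 0.17. A value given for a gene is that of the spots so annotated. Clones of related hnRNP or SR genes can hybridize with each other's RNA.

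**Figure D3:**
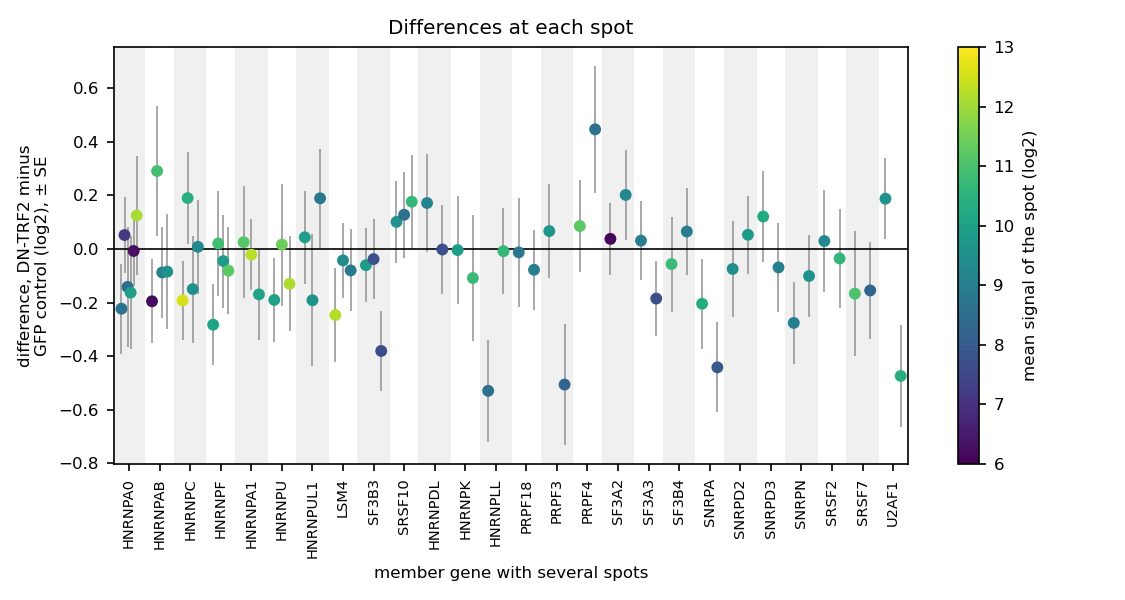
Difference between DN-TRF2 and GFP control at each spot (vertical axis, log2, point with SE, n = 3 arrays per group) for the 26 members with several spots (horizontal axis), coloured by the mean signal of the spot. In 15 of the 26 genes the spots lie on both sides of 0, and the spots farthest from 0, at HNRNPLL, PRPF3 and U2AF1, stand beside a spot of the same gene near or above 0.

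By array, the families did not share 1 pattern. The median of all members, relative to each gene's mean over the 6 arrays, was -0.043, 0.014 and -0.0055 on DN-TRF2 replicates 1, 2 and 3 and 0.010, 0.035 and 0.068 on the GFP control replicates. DN-TRF2 replicate 2 lay above GFP control replicate 1, so the groups overlapped. The SNRP median was high on GFP control replicates 2 and 3 (0.10 and 0.11) and not on replicate 1 (-0.041), against -0.065, -0.0014 and -0.071 on the DN-TRF2 arrays. The HNRNP median was at 0.11 on GFP control replicate 3, at 0.037 on replicate 2 and at -0.12 on replicate 1, where DN-TRF2 replicate 1 was low as well, at -0.083. In the LSM family GFP control replicate 2 was the lowest array, at -0.078, and DN-TRF2 replicate 2 the highest, at 0.096.

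**Figure D4:**
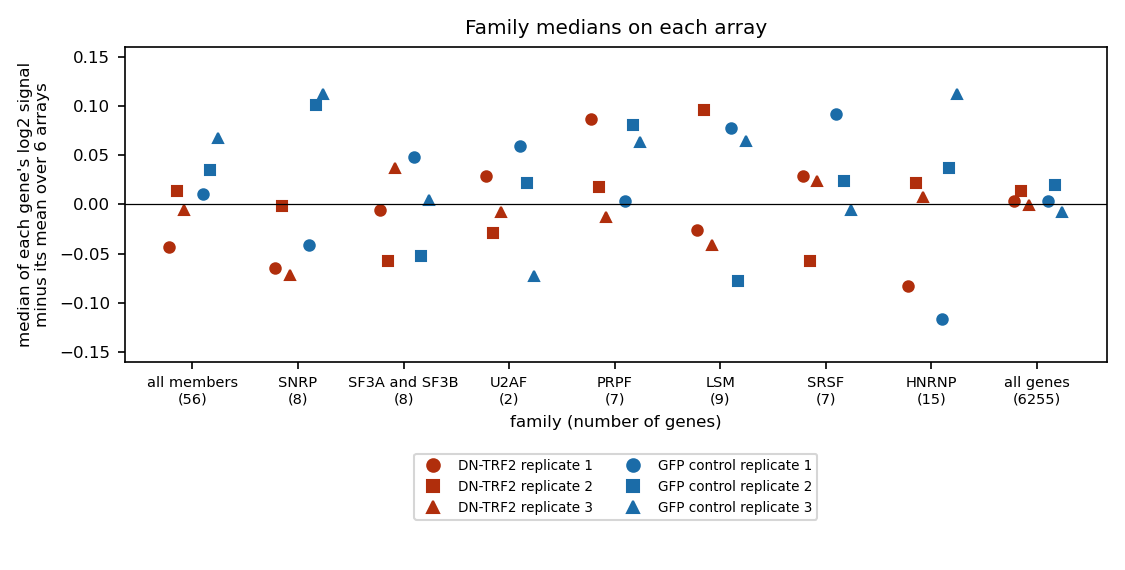
Median, over the genes of each family, of the gene's log2 signal minus its mean over the 6 arrays (vertical axis), for each DN-TRF2 array (red, left) and GFP control array (blue, right); symbols are replicates and the number of genes is in brackets. In no family do the 3 DN-TRF2 arrays lie wholly below or above the 3 GFP control arrays; the SNRP medians run from -0.071 to -0.0014 in DN-TRF2 and from -0.041 to 0.11 in GFP control.

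Which members reached an unadjusted p under 0.05 changed with the array left out. Each such fit kept the same-numbered array of the other group, so an array and its replicate number cannot be told apart. The 1 member found with all arrays became 5 without GFP control replicate 2 (SRSF4, SF3B6, SNRPN, LSM10 and HNRNPR), where 8.14% of all genes did so. Without GFP control replicate 3 there were 3 (HNRNPLL, PRPF4 and SNRPA, with 7.74% of all genes), and without GFP control replicate 1 there were 2 (SNRPD1 and SRSF7, with 4.24%). Without DN-TRF2 replicate 1 there was none (2.48%). SNRPA stayed under 0.05 without GFP control replicate 3 or DN-TRF2 replicate 3 and not when any other array was left out. In each of these fits 0 members passed at an adjusted p under 0.05. The difference of 27 of the 32 members given in every sample moved by over 1.5 times with some array left out. That share was not taken over all genes. Many of these differences were below their standard errors, where a small shift gives a large ratio, so the count is not particular to the members. With 1 array left out, between 36 and 39 of the 56 members had a lower mean, and between 49.1% and 54.3% of all genes.

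Same-numbered samples of the groups deviated together, so differences were also read within each number. Of the 56 members 9 were lower in DN-TRF2 at all 3 numbers (SNRPA, SNRPN, SNRPG, SF3B3, LSM10, SRSF3, SRSF4, HNRNPD and HNRNPA0), which is 16.1%, near the 15.2% of all genes. SF3A2 and SRSF10 were higher at all 3, which is 3.57% of members, against 11.5% of all genes. Margins could be small on either side, as at SRSF10 (0.029, 0.37 and 0.0032) and HNRNPA0 (-0.039, -0.022 and -0.12).

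Splicing genes outside these families were described beside them. Of 115 listed, 64 were measured, 37 with a lower and 27 with a higher mean, at a median of -0.027, and 0 passed over all genes. An unadjusted p under 0.05 was found for 3 of the 64, or 4.69%, near the 3.57% of all genes. MAGOHB, a protein of the exon junction complex, lay at 6.83, 7.01 and 7.03 in DN-TRF2 and 7.15, 7.57 and 7.37 in GFP control (-0.41 ± 0.15). TARDBP, which encodes the RNA-binding protein TDP-43, lay at 7.23, 7.04 and 6.81 in DN-TRF2 and 7.32, 7.58 and 7.40 in GFP control (-0.40 ± 0.15). DDX46, the helicase that remodels the U2 snRNP, lay at 8.73, 8.72 and 8.67 in DN-TRF2 and 8.27, 8.42 and 8.44 in GFP control (0.33 ± 0.12). Of the 64, 4 (6.25%) had groups that did not overlap with DN-TRF2 lower, against 4.25% of all genes. A further 2 were separated with DN-TRF2 higher, against 4.7% of all genes. The 3 genes named, picked by their p, were among these. Each gene has 1 spot, and the adjusted p was 1.00 for each in limma. The next in order, THOC1 of the mRNA export machinery, differed by -0.30 ± 0.15. By class, alternative splicing regulators and kinases had 11 of 15 lower (median -0.096), the Prp19-associated factors and helicases 9 of 18 (0.0099), snRNP and tri-snRNP proteins 7 of 12 (-0.054), snRNP assembly genes 5 of 9 (-0.057) and exon junction and export genes 5 of 10 (0.029).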

How the data were processed

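The authors deposited 1 linear intensity value per spot and array. Per the labels' protocols, about 5 µg of total RNA was radiolabelled and hybridized. How the image was read, how background was treated and whether values were scaled is not given in the sources used. The 384 blank positions, of which 313 hold the stand-in value 10 for no signal on all 6 arrays, were left out, as were 47 further spots at that value on all arrays. Spots were named through the platform annotation, updated by gene ID (GRCh38.p14 gene table; 8493 of 8517 annotated spots matched). After an offset of 50, log2 and quantile normalization, spots of 1 gene were averaged, and all 6255 named genes were fitted in R 4.3.3 by limma 3.58.1 through lmFit and eBayes; tests were two-sided, and p-values were adjusted after Benjamini and Hochberg over all genes, with a threshold of 0.05. Spots were fitted likewise; errors are limma's standard errors. In simulated data on 6255 genes, 50 genes were changed at each of 0.5, 1, 2 and 3 (log2). Of these, 28%, 80%, 100% and 100% were recovered, with 7 false calls. Those shares apply where that many genes change. They do not give the chance of finding a single changed gene here, where 0 genes passed. The labels name independent experiments, without further detail on cultures.

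Members and lists were chosen with earlier results of these data known. Genes given in every sample were, per family, up to 4 members of smallest unadjusted p and those with 3 or more spots; other genes given per array (SNRPE, SF3B6, LSM3, LSM6 and HNRNPR) were picked once their values had been seen. Replicate numbers pair the samples: deviations from the group means correlated at 0.39, 0.29 and 0.24 between same-numbered samples. The pairing comes from these values. Alternatives were other offsets, median centring, filters on dim spots, a floor, the brightest spot per gene, array weights, a replicate block, a position correction over 100 neighbouring spots and leaving out arrays.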

Additional observations from a re-analysis of the deposited data

How the results depend on the processing

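In all 16 alternatives 0 members and 0 genes passed limma's adjusted p. With the replicate block, which takes the numbers as pairs, 1 member and 332 genes had an unadjusted p under 0.05, against 223 genes without it, and no call changed. The count of such genes was 141 without the quartile of dimmest spots, 82 once spots under the median signal were dropped and 361 with array weights, and ran from 101 to 509 with 1 array left out. The count of such members, 1 as reported, was 0 under median centring (171 of all genes, 2.73%), both filters on dim spots and array weights, 4 after the position correction (SNRPA, LSM8, PRPF3 and LSM10, against 236 of all genes, 3.77%) and 0 to 5 with 1 array left out (1.61% to 8.14% of all genes). Of the 38 members left above median signal, 26 had a lower mean. Family medians moved by more than the spread between arrays in some cases, and the cause was not tested. These were not only medians near 0: that of SNRP went from -0.13 to 0.012 without GFP control replicate 2. Median centring gave -0.041 for SF3A and SF3B and -0.096 for U2AF. The position correction gave -0.021 for SF3A and SF3B and -0.17 for LSM. The brightest spot per gene gave -0.17 for U2AF and 0.066 for PRPF, array weights 0.023 for PRPF and 0.044 for SRSF, and the filter at median signal 0.073 for PRPF. With 1 array left out the medians ran from -0.16 to 0.012 for SNRP, from -0.038 to 0.059 for SF3A and SF3B from -0.081 to 0.037 for SRSF, from -0.088 to -0.0073 for HNRNP, from -0.15 to -0.077 for LSM, from -0.064 to -0.0096 for PRPF and from -0.044 to 0.023 for U2AF.

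None of the differences whose sign turned had been called. The brightest spot per gene gave 0.031 for SF3A3, 0.066 for PRPF3, 0.12 for HNRNPA0 and 0.29 for HNRNPAB. Without the quartile of dimmest spots SF3A3 came to 0.031 and HNRNPAB to 0.039. Without the spots below median signal the values were 0.066 for PRPF3, 0.10 for HNRNPAB and -0.074 for HNRNPUL1. HNRNPUL1 was at -0.13 with array weights and -0.066 after the position correction, which put PRPF6 at -0.015. U2AF2 was at -0.021 under median centring and HNRNPAB at 0.00085 with an offset of 100. With 1 array left out, differences ran from -0.48 to 7.91e-05 for SNRPD1, -0.29 to 0.025 for LSM1, -0.00057 to 0.21 for SRSF10, -0.019 to 0.25 for HNRNPM, -0.17 to 0.049 for HNRNPA1, -0.16 to 0.081 for HNRNPC, -0.058 to 0.031 for HNRNPAB and -0.18 to 0.13 for HNRNPUL1. The background is not known, so how far a spot's signal lies above it cannot be stated.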
